A study of Rattus norvegicus with 3 samples.

Results

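Cycling fibroblasts are the connective tissue cells of a wound that are copying their DNA or dividing. In single-cell RNA sequencing of diabetic rat skin wounds they were 363 of the 41236 barcodes kept, 143 from the untreated, 42 from the hydrogel and 178 from the CO hydrogel library. A barcode, which stands for 1 droplet and usually for 1 cell, was kept with at least 500 UMIs (unique molecular identifiers, each standing for 1 captured RNA molecule), at least 300 detected genes and at most 20% of UMIs from mitochondrial genes. It passed as a fibroblast when Dcn, Lum and Dpt, which encode proteins that coat collagen fibres, together gave at least 0.3% of its UMIs and it held no UMI of Ptprc, the leukocyte phosphatase CD45, or of Rgs5, a pericyte gene. It passed as cycling when at least 3 of the 8 cell cycle genes Mki67, Top2a, Cdk1, Birc5, Ccnb1, Cenpf, Ube2c and Tpx2 had a UMI. The comparison cells were the 8838 fibroblasts of the same gate with fewer than 3 of those genes, 1268, 1805 and 5765 in the same library order. The cells were thus chosen by measured RNA, so the genes of the rule were left out of all tests, and the levels and fold changes of other genes of the division programme are given as a description.

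The wounds were full-thickness skin defects of 15 mm in male wild type SD (Sprague-Dawley) rats, given 65 mg/kg of streptozotocin, a toxin of pancreatic beta cells, at 7 to 9 weeks of age and used once blood glucose was over 16.7 mM. They were left untreated, covered with HAG, a gel of hyaluronic acid, or covered with COHAG, a gel of the same polymer from which carbon monoxide (CO) is set free. Day 7 is the only time named, in a protocol that all 3 libraries share, and the number of animals behind a library is not given. Each group was 1 library, so nothing between libraries was tested, and intervals between libraries cover counting error only.

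Skin fibroblasts rest for most of adult life, and an injury brings a share of them into division before they fill the wound with matrix and contract it. A dividing cell passes from G1, where D-type cyclins and growth factors decide on entry, to S phase, where the MCM helicase opens DNA for copying, then to G2 and to mitosis, which cyclin B with the kinase CDK1 starts and the spindle and kinetochores carry out. S phase genes are switched on by E2F factors. Genes of G2 and mitosis are held by the MuvB complex, with B-MYB and FOXM1, at a promoter element called the cell cycle homology region, often beside CCAAT boxes bound by NF-Y.

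Several properties of these cells bear on all the results. The summed cycling fibroblasts held 3625358 untreated, 792285 hydrogel and 2441166 CO hydrogel UMIs. Their medians were 23396, 19245 and 12279 UMIs per cell, above the 14073, 11716 and 8347 of non-cycling fibroblasts, and a rule that asks for detected genes is met more easily by a deeper cell. Some barcodes occurred in more than 1 library: 364 in the untreated and hydrogel libraries, 600 in the untreated and CO hydrogel libraries and 477 in the hydrogel and CO hydrogel libraries. The shallower copies had medians of 996, 881 and 1006 UMIs, and the copies correlated at medians of 0.42, 0.29 and 0.41 across genes, against 0.16, 0.07 and 0.16 for the next barcode in the list. Of the cycling fibroblasts 29 carried such a barcode (20, 1 and 8), and for 6 barcodes both copies, untreated and CO hydrogel, were cycling fibroblasts. The doublet caller Scrublet placed 10, 6 and 38 cycling fibroblasts (6.99%, 14.3% and 21.3%) among its highest scores, against 9.94%, 16.3% and 12.3% of non-cycling ones. Values without these cells are given where they moved a result, and their part in the results was not tested otherwise.

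Besides the genes of the rule, the cells carried RNA of other fibroblast genes. Of 17 fibroblast genes outside the rule 15 were in the files, and all 15 were detected in the cycling cells of every library. Together they reached 57653 CPM (the gene's UMIs scaled to a total of 1e6 UMIs of the summed cells) untreated, 58450 with the hydrogel and 66055 with the CO hydrogel, against 10119, 8387 and 13752 CPM outside the gate. The gate sets that contrast in part, since it asks for Dcn, Lum and Dpt. Non-cycling fibroblasts, which passed the same gate, stood above the cycling ones in each library, at 79914, 64716 and 71820 CPM. Markers of other cells were far lower. The 13 myeloid markers summed to 208, 755 and 555 CPM, against 14831, 15544 and 13160 CPM outside the gate and 288, 567 and 492 in non-cycling fibroblasts. The 9 neutrophil markers summed to 260, 231 and 96.3 CPM, with Retnlg at 0 in all 3 libraries, with the non-cycling cells at 431, 383 and 281 CPM. The 9 measured T and NK cell markers summed to 13.2, 101 and 93.4 CPM, above the 5.60, 29.7 and 32.9 CPM of non-cycling fibroblasts in each library, with 62.5% of the hydrogel UMIs in 1 cell and with Cd3e, Cd3d and Cd2 at 0 in all 3. The part of these markers in the results was not tested. Endothelial markers gave 63.4, 89.6 and 144 CPM, above the 46.9, 60.7 and 134 CPM of non-cycling fibroblasts in each library. Mural markers gave 48.3, 88.4 and 131 CPM, below the non-cycling 73.2, 111 and 149 CPM. Schwann, mast and erythroid markers gave at most 35.2 CPM. Keratinocyte markers gave 364, 77.0 and 283 CPM, of which 1 untreated cell held 83.7% of that library's UMIs. Muscle markers reached 55.7 CPM and adipocyte markers 127 CPM in the CO hydrogel library mainly through 1 cell each, which held 80.9% and 74.0% of the UMIs, and Pax7, Myog and Mymk were at 0 in all 3 libraries.

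The genes that chose the cells are those of late S phase, G2 and mitosis. Mki67, whose protein coats mitotic chromosomes, stood at 250, 427 and 358 CPM in cycling fibroblasts and at 3.95, 1.70 and 3.37 CPM in non-cycling ones. Top2a, the topoisomerase that untangles copied DNA, stood at 297, 649 and 488 CPM against 1.44, 1.35 and 1.73. Cenpf, a kinetochore protein, stood at 287, 475 and 421 CPM, and Ube2c, which marks mitotic proteins for destruction, at 386, 500 and 383 CPM. Cdk1 and its partner Ccnb1 stood at 237, 308 and 227 CPM and at 128, 167 and 138 CPM. Birc5, the chromosomal passenger survivin, ranged from 142 to 184 CPM and Tpx2, a spindle assembly factor, from 186 to 329 CPM. The hydrogel library was the highest of the 3 for all 8 genes, with the fewest cells. The rule chose the cells by these genes, so this order describes the chosen cells only.

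Some promoters of cell cycle genes, within the rule and outside it, hold letters known from the 2 kinds of cell cycle control. To show these letters 6 promoters are printed, 4 of genes of G2 and mitosis and 2 of S phase genes. The letters are 200 bases before the start of the gene, from RefSeq on GRCr8, 5′ to 3′ on the gene's strand, in lower case with matches on either strand in capitals. Searched were TTTGAA for the cell cycle homology region, CCAAT for the NF-Y box, and TTTCGCGC or TTTGGCGC for E2F. A match on the opposite strand is printed as its reverse complement, so CCAAT can appear as ATTGG. E2F matches of both strands overlap in Gins1 and Mcm6, and a cell cycle homology match overlaps an NF-Y box in Mki67.
Mki67, chr1:199952594-199952793, minus strand: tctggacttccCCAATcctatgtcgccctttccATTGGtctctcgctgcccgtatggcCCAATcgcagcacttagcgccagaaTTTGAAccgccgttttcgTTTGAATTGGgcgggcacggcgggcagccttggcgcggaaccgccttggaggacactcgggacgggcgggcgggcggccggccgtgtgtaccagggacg
Top2a, chr10:84473094-84473293, minus strand: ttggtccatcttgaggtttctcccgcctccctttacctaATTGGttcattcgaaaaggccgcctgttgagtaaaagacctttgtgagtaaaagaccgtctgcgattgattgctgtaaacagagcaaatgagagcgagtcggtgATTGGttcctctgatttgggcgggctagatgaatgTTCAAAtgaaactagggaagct
Cdk1, chr20:19265093-19265292, plus strand: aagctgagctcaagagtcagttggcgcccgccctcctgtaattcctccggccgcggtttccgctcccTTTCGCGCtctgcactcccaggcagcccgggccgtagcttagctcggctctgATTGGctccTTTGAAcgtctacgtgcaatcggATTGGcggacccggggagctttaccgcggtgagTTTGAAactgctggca
Cdc20, chr5:137255800-137255999, minus strand: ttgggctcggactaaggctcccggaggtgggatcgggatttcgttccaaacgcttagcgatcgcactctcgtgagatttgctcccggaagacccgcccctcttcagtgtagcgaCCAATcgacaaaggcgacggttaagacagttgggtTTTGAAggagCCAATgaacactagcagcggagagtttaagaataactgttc
Gins1, chr3:160184720-160184919, plus strand: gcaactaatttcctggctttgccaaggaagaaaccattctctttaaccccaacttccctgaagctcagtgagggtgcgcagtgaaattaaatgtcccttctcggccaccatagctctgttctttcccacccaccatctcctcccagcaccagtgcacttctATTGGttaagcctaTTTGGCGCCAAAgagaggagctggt
Mcm6, chr13:42404353-42404552, minus strand: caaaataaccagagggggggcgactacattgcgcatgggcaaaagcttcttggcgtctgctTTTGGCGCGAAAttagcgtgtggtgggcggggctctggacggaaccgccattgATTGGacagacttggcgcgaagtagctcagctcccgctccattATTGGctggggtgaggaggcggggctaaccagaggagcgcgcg
Mki67, Top2a, Cdk1 and Cdc20, an activator of the anaphase-promoting complex, each show TTTGAA and CCAAT on one strand or the other, and Cdk1 also TTTCGCGC. Gins1 and Mcm6, parts of the replication helicase, show CCAAT and E2F letters, and TTTGAA is not in these windows. Other promoters, searched over 250 bases and not printed, did not all divide this way. Mcm2, also of the helicase, held TTTGAA and E2F letters. Plk1, Ccnb1 and Cenpf held CCAAT without TTTGAA, and Aurka held none of these letters. Birc5 held TTTGAA and CCAAT, and Dtl held CCAAT and E2F letters.

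Over the 250 bases before the start, the matches differed between the lists of cell cycle genes. Of the 8 cycle genes of the rule 6 had a promoter in the table, and TTTGAA was in 4 of them and CCAAT in all 6. Of all 33469 promoters 16.2% held TTTGAA, 34.0% CCAAT and 0.636% an E2F match. Kinases, cyclins and ubiquitin ligase parts of G2 and mitosis held TTTGAA in 8 of 21 (38.1%) and E2F letters in 0. Genes of spindle, kinetochore and cytokinesis held TTTGAA in 17 of 35 (48.6%) and E2F letters in 1. Those of chromosomes and chromatin held TTTGAA in 13 of 24 (54.2%) and CCAAT in 20 (83.3%). S phase genes held TTTGAA in 4 of 34 (11.8%) and E2F letters in 9 (26.5%), among them Mcm2, Mcm5, Mcm6, Mcm7, Gins1 and Tyms. The matches are letters in a window and not measured binding.

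The first question was how large a share of the fibroblasts was cycling in each wound. Cycling cells were 143 of 1411 gated fibroblasts in the untreated library, which is 10.1% (95% exact binomial interval 8.61 to 11.8). They were 42 of 1847 in the hydrogel library, 2.27% (1.64 to 3.06), and 178 of 5943 in the CO hydrogel library, 3.00% (2.58 to 3.46). The untreated share lay above both others and the intervals of the treated libraries overlapped. The shares were also taken at equal depth. At 5000 UMIs per cell, drawn at random, they were 9.08%, 2.05% and 2.68%. At 3000 UMIs per cell the untreated share was 6.44% (5.07 to 8.06), the hydrogel share 1.97% (1.33 to 2.82) and the CO hydrogel share 2.11% (1.72 to 2.56), after leaving out 309, 377 and 1157 shallower cells. Among cells of 10000 to 20000 UMIs they were 6.86%, 1.91% and 3.79%, and among cells of at least 20000 UMIs 19.0% of 483, 10.7% of 169 and 20.8% of 168, so the deepest CO hydrogel cells did not lie below the untreated ones. As a share of all kept barcodes cycling fibroblasts were 1.20%, 0.293% and 1.19%, nearly equal in the untreated and CO hydrogel libraries. Without shared barcodes the shares of fibroblasts were 10.4%, 2.37% and 3.01%, and without the highest Scrublet scores 10.4%, 2.33% and 2.69%.

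**Figure D1:**
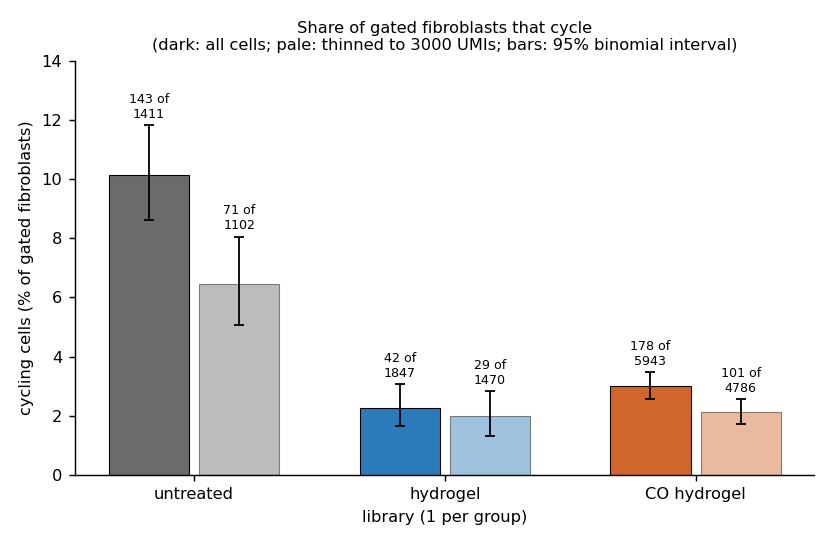
Share of gated fibroblasts that met the cycling rule in each library, in percent on the vertical axis, for all cells (dark bars) and with each cell thinned to 3000 UMIs (pale bars). Whiskers are exact binomial 95% intervals; the untreated bars, 10.1% and 6.44%, stand above the treated ones at either depth.

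The rule cut through a thin tail. Of the gated fibroblasts 7669 had none of the 8 genes, 1039 had 1 and 130 had 2, while 70, 39, 34, 44, 55 and 121 had 3, 4, 5, 6, 7 and 8. All 8 genes were detected in 53, 18 and 50 cells of the 3 libraries. With at least 2 genes the shares were 12.5%, 3.57% and 4.21%, and with at least 4 they were 8.65%, 1.73% and 2.34%. At the fibroblast threshold 13 cycling cells had 0.3% to 0.4% of UMIs from Dcn, Lum and Dpt and 7 had 0.2% to 0.3% and were left out. Another 121 cycling cells passed the threshold and held a Ptprc or Rgs5 UMI. With a threshold of 1% the shares were 6.15%, 1.74% and 2.23%.

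**Figure D2:**
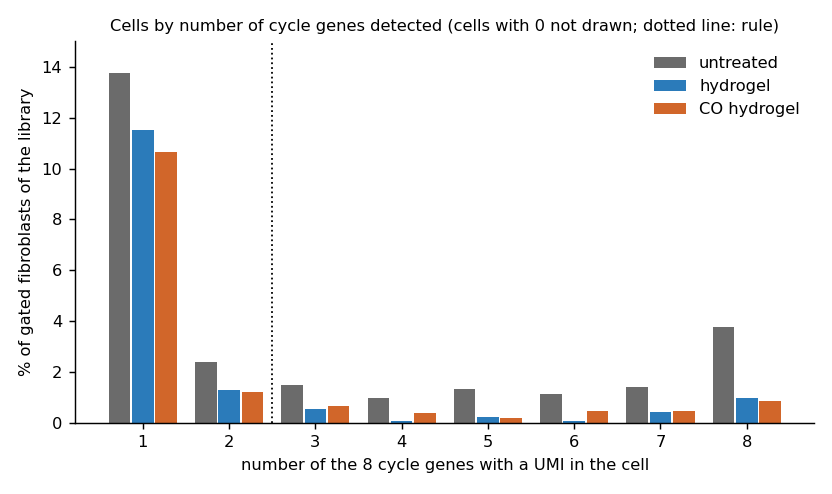
Percent of each library's gated fibroblasts (vertical axis) by the number of the 8 cycle genes with a UMI (horizontal axis), without the cells that had none. The bars fall from 1 gene to the dotted line of the rule and rise again at 8 genes, where 53, 18 and 50 cells lie.

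Other cells of the wound met the cycling rule too, and the order of the libraries was not the same in them. Cells with a Ptprc UMI met the cycling rule in 1.39% (1.00 to 1.89), 1.56% (1.24 to 1.92) and 2.34% (1.84 to 2.93) when thinned to 3000 UMIs. Cells with an Rgs5 UMI and none of Ptprc met it in 7.53% (5.59 to 9.89), 3.92% (2.82 to 5.28) and 4.40% (3.38 to 5.63), with the untreated library highest as among fibroblasts. The remaining cells below the fibroblast threshold met it in 3.41%, 2.83% and 4.11%. Unthinned shares were 1.13%, 3.26% and 3.51% of Ptprc cells and 10.2%, 5.33% and 6.01% of Rgs5 cells, whose median depths were 2802, 6008 and 5115 UMIs and 9534, 8302 and 6576 UMIs.

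Most of the cells carried more RNA of the G2 and mitosis list than of the S phase list, which is shorter. Summed over 40 genes of S phase the cycling fibroblasts reached 1425, 1441 and 1464 CPM, and over 62 genes of G2 and mitosis 4999, 6438 and 5465 CPM. Non-cycling fibroblasts had 359, 369 and 410 CPM of the first list and 435, 343 and 354 CPM of the second. The second sum exceeded the first in 129 of 143 untreated cells, 90.2% (84.1 to 94.5), in 41 of 42 hydrogel cells, 97.6% (87.4 to 99.9), and in 153 of 178 CO hydrogel cells, 86.0% (79.97 to 90.7). Only 1 of the 363 cells had UMIs of the S phase list and none of the other. The 8 genes of the rule are mostly of G2 and mitosis, so a cell early in S phase was less likely to be chosen.

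Beyond the rule, the machinery of each phase was present. In S phase Rrm2, the subunit of ribonucleotide reductase that makes DNA building blocks, stood at 33.7, 40.4 and 25.8 CPM in cycling and 1.07, 0.349 and 0.248 CPM in non-cycling cells. Gins1 stood at 16.8, 13.9 and 16.8 CPM against 0.80, 0.499 and 1.22. In mitosis the kinase Plk1 stood at 85.2, 124 and 85.2 CPM against 0.747, 0.648 and 0.496, and the cyclin Ccna2 at 57.4, 59.3 and 64.7 CPM against 0.427, 0.349 and 0.516. Both were under 1 CPM in the non-cycling cells of every library. Stmn1, which takes microtubules apart, stood at 298, 607 and 583 CPM against 15.8, 13.2 and 17.7. The median log2 fold change of cycling over non-cycling cells was 2.18 over 37 S phase genes tested, 4.81 over 25 kinases, cyclins and ubiquitin ligase parts of G2 and mitosis, 5.88 over 37 spindle and kinetochore genes, 2.21 over 22 chromatin genes and 2.46 over 18 repair genes. Genes outside the lists that stood furthest above were of the same programme. They were Depdc1 (64.0, 138 and 91.8 CPM against 0.213, 0.15 and 0.578), the PCNA partner Pclaf, the kinetochore gene Ska1, the mitotic kinase Mastl, the kinesin Kifc1, and Sgo2, Asf1b, Sapcd2, Knstrn and Cenpu, with log2 fold changes from 5.67 to 7.72.

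What else set cycling fibroblasts apart was tested with counts summed per library and state, comparing the 2 states within the 3 libraries by edgeR's quasi-likelihood test with Benjamini-Hochberg adjustment. Of 11520 genes 1048 were higher (9.1%) and 1361 lower (11.8%), so 20.9% were called in either direction at an adjusted p under 0.05, and the median log2 fold change over all genes was -0.08. These percentages are the background for every list that follows, and they include the division programme itself. Scaling decided the split: with total UMIs in place of TMM factors (which equalise the bulk of genes) all log2 fold changes moved up by 0.21 in the median, and 1993 genes were higher and 756 lower. DESeq2 called 907 and 788. Without the CO hydrogel library 697 were higher and 862 lower, and without the untreated or the hydrogel library 743 and 1066 or 1014 and 1256. Fold changes below are relative to the TMM scale, lists are described by counts and median and carry no test of their own, and p-values rest on the spread between 3 libraries.

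**Figure D3:**
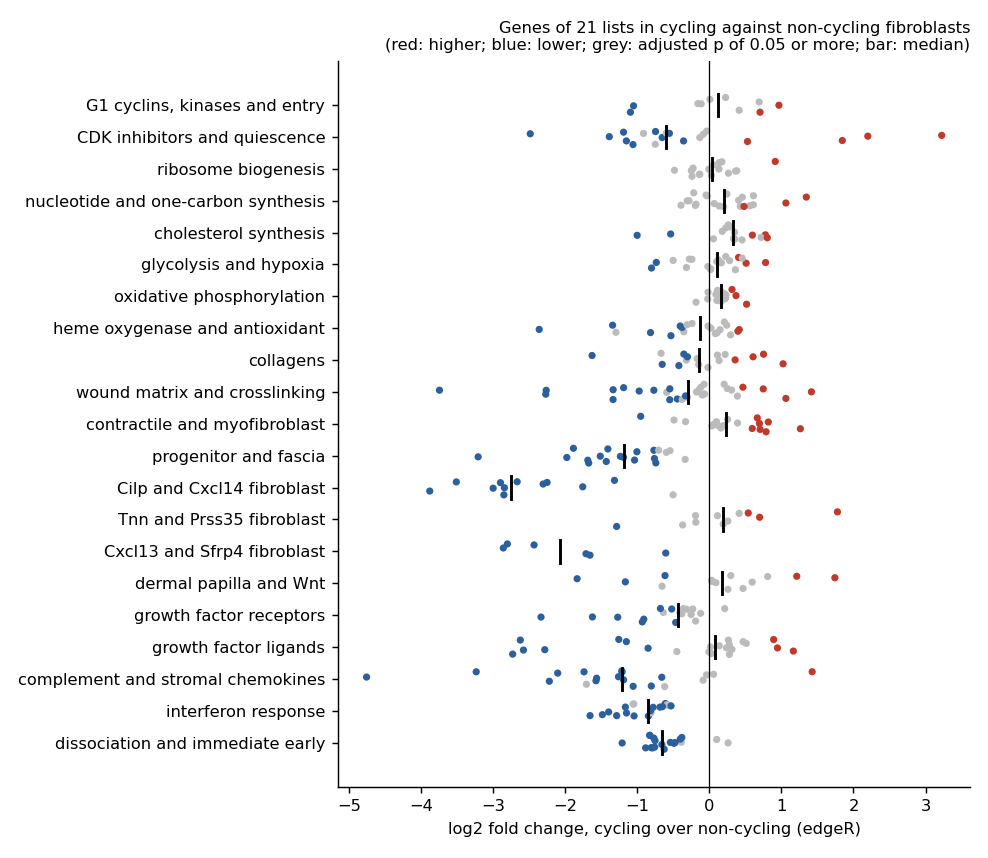
Log2 fold change of cycling over non-cycling fibroblasts (horizontal axis) for the tested genes of 21 lists (rows); each point is a gene, red where higher and blue where lower at an adjusted p under 0.05 by edgeR, grey otherwise, and the bar is the list's median. The lists of progenitor, Cilp and Cxcl14, and Cxcl13 and Sfrp4 fibroblasts lie to the left of 0, with medians of -1.19, -2.75 and -2.07.

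Entry and brake genes of the cycle moved in both directions. Of 10 genes of G1 entry 2 rose and 2 fell. Ccnd1, cyclin D1, had 79.4, 84.6 and 90.9 CPM in cycling and 25.7, 32.3 and 60.2 CPM in non-cycling cells and rose by a log2 fold change of 0.97 ± 0.19 (SE, adjusted p = 0.00774). Ccnd2, cyclin D2, had 4.97, 7.57 and 9.42 CPM against 10.4, 12.8 and 16.1 and fell (-1.09 ± 0.19, adjusted p = 0.00438). The ranges of the 2 states did not overlap for either cyclin. Myc, the growth factor response gene, fell from 157, 128 and 148 CPM to 110, 46.7 and 85.2 (-1.05 ± 0.16, adjusted p = 0.00217). Cdc25a, a phosphatase that activates CDKs, rose by 0.70 (adjusted p = 0.034), a call lost with DESeq2 (0.102) and without the untreated (0.318) or the CO hydrogel library (0.124).

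Among 19 CDK inhibitors and quiescence genes 4 rose and 9 fell, with a median of -0.60. Cdkn2c, the inhibitor p18 of CDK4 and CDK6, stood at 47.2, 63.1 and 73.3 CPM against 6.19, 4.29 and 5.95 (3.22 ± 0.18, adjusted p = 4.62e-06). Cdkn2a, the locus of p16 and p19ARF, rose from 1.17, 1.65 and 1.57 CPM to 4.14, 16.4 and 7.37 (2.20 ± 0.36, adjusted p = 0.00304), and Rbl1, the retinoblastoma relative p107, rose by 1.85 ± 0.26. Both are E2F targets in textbook accounts. Cdkn1c, the inhibitor p57, went the other way: 22.6, 42.9 and 165 CPM against 142, 241 and 600 (-2.48 ± 0.16, adjusted p = 1.1e-05), although 1 untreated cell held 61.0% of that library's cycling UMIs. Of cells thinned to 3000 UMIs 3.79%, 7.89% and 24.2% of cycling and 26.2%, 38.4% and 54.8% of non-cycling fibroblasts had a Cdkn1c UMI. Cdkn1a, the p53 target p21, was at 66.8, 64.4 and 68.0 CPM against 55.5, 65.9 and 63.2 (-0.08, adjusted p = 0.69). The antiproliferative genes Btg2 and Klf4 fell by 0.65 and 1.39, and Btg1, Tob1, Gas1, Txnip, Klf9 and Foxo1 were also lower. Without the untreated library 5 of the 9 were called lower.

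**Figure D4:**
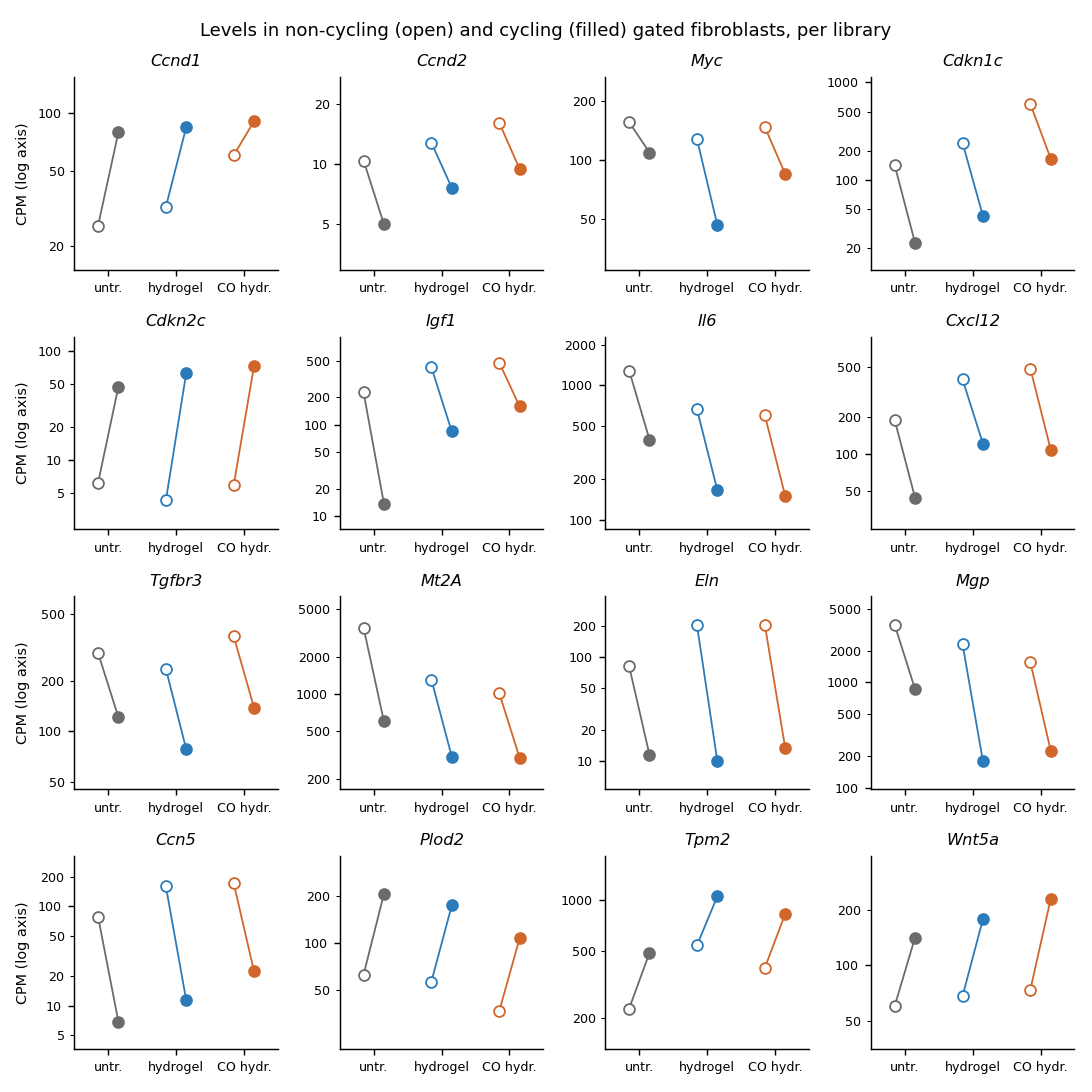
Levels in CPM (vertical log axes) of 16 genes in non-cycling (open circles) and cycling (filled circles) fibroblasts of the untreated, hydrogel and CO hydrogel libraries; each circle is the sum of 1 library's cells and lines join the 2 states of a library. Ccnd1, Cdkn2c, Plod2, Tpm2 and Wnt5a are higher in the cycling sum of each library, and the other 11 genes are lower in each.

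Genes of growth and energy changed little on this scale. Of 16 genes of ribosome biogenesis 1 was higher, Nhp2 (0.91 ± 0.14, adjusted p = 0.00236), a core protein of the guide RNAs that modify ribosomal RNA. Among 21 genes of nucleotide and one-carbon synthesis Phgdh, the first enzyme of serine synthesis, rose from 3.63, 6.04 and 6.46 CPM to 11.6, 21.5 and 15.98 (1.35 ± 0.21, adjusted p = 0.00208). Psat1, the next enzyme of that pathway, rose by 1.06 (adjusted p = 0.00836), a call lost without the untreated library (0.252), and Nme1 by 0.48. The glycolysis and hypoxia list had 3 of 19 higher (Tpi1, Pgk1, Eno1) and 2 lower (Hk2, Vegfa), and the respiratory chain had 3 of 20 higher (Cox7b, Uqcrq, Ndufa4). With total UMIs the counts of higher genes were 5 for ribosome biogenesis, 9 for nucleotide synthesis, 6 for glycolysis and 16 for the respiratory chain, so these lists depended on the scaling. Pgk1, a glycolytic kinase, had 633, 328 and 302 CPM in cycling and 346, 211 and 191 CPM in non-cycling cells (0.51 ± 0.10, adjusted p = 0.00754). Vegfa, the angiogenic factor, had 292, 134 and 125 CPM against 318, 240 and 227 (-0.80 ± 0.16, adjusted p = 0.00759).

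Since one of the gels releases CO, which heme oxygenase also makes in cells, the list of heme and antioxidant genes is of interest. Hmox1, heme oxygenase, had 148, 249 and 148 CPM in cycling and 193, 206 and 142 CPM in non-cycling fibroblasts and was not called (-0.24, adjusted p = 0.235). The cells of the CO hydrogel wound did not have the highest level in either state. Of the 20 genes 2 were called higher and 6 lower. The higher calls were weak: that of Blvra, biliverdin reductase, was lost with DESeq2 (adjusted p = 0.149) and without the untreated (0.196), the hydrogel (0.0535) or the CO hydrogel library (0.303), and that of Txn1, thioredoxin, without the untreated (0.194) or the CO hydrogel library (0.0814). The metallothioneins, which bind zinc and copper, fell most: Mt2A from 3505, 1313 and 1019 CPM to 596, 307 and 300 (-2.36 ± 0.14, adjusted p = 7.47e-06) and Mt1 from 1307, 673 and 491 CPM to 308, 494 and 277 (-1.34 ± 0.26, adjusted p = 0.00629). Nqo1, a quinone reductase under NRF2, had 35.3, 17.7 and 20.1 CPM against 44.3, 30.4 and 37.7 (-0.82 ± 0.15, adjusted p = 0.00601), and Nfe2l2, NRF2 itself, the ferritin chains Fth1 and Ftl1 were also lower. The list's median was -0.13, and 0.08 with total UMIs, under which 6 genes were higher and 3 lower. Of the 6 lower genes 5 had a higher level outside the fibroblast gate than within it.

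Matrix genes went in both directions. Of 17 collagens 4 rose and 5 fell, with a median of -0.15 that was 0.07 with total UMIs and 0.09 without the untreated library. Col14a1, a collagen of the fibril surface, fell from 273, 217 and 293 CPM to 85.5, 68.2 and 149 (-1.63 ± 0.15, adjusted p = 0.000111). Col7a1, which anchors the basement membrane, rose from 39.3, 50.3 and 70.6 CPM to 80.3, 135 and 172 (1.02 ± 0.11, adjusted p = 0.000291), and Col15a1 and Col5a3 rose by 0.75 and 0.61. Col1a1, the main fibril chain, was at 26762, 32524 and 31256 CPM against 33825, 31168 and 30929 and its call (-0.30, adjusted p = 0.0406) was lost in 7 alternatives. Col3a1 fell by 0.65 ± 0.10 (adjusted p = 0.00176). Calls of collagens were 4 higher and 2 lower with DESeq2, 5 and 3 without the untreated library, and 3 and 3 without either treated library.

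Of 29 other genes of wound matrix and its crosslinking 4 rose and 12 fell. Eln, elastin, had 11.6, 10.1 and 13.5 CPM in cycling and 81.5, 202 and 204 CPM in non-cycling cells (-3.74 ± 0.24, adjusted p = 9.14e-06). The elastic fibre partners Mfap4, Mfap2 and Fbln1 fell by 2.27, 1.33 and 1.34 and Fmod, a collagen-binding proteoglycan, by 2.26. Plod2, the lysyl hydroxylase whose crosslinks are typical of scars, rose from 62.8, 56.7 and 36.7 CPM to 207, 174 and 107 (1.42 ± 0.10, adjusted p = 2.42e-05). Tnc, the tenascin of wound edges, rose from 864, 378 and 506 CPM to 1687, 1144 and 1233 (1.06 ± 0.12, adjusted p = 0.000323), and Fbn2 and Lox rose by 0.75 and 0.47, the latter a call lost without the CO hydrogel library (0.0812) and against the depth-weighted comparator (0.139). The 4 that rose are a tenascin, a fibrillin and 2 crosslinking enzymes. With total UMIs 7 rose and 9 fell.

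Contractile genes leaned upward, with 7 of 18 higher and 1 lower and a median of 0.23. Tpm2, a tropomyosin, rose from 229, 541 and 398 CPM to 487, 1050 and 826 (0.82 ± 0.09, adjusted p = 0.000334). Acta2, the smooth muscle actin that defines myofibroblasts, rose from 29.2, 77.7 and 33.3 CPM to 42.8, 158 and 88.1 (0.79 ± 0.16, adjusted p = 0.00768). Actn1, Myl9, Tagln, Tpm4 and Cnn1 also rose, by 0.60 to 1.26, and Itga11, a collagen receptor, fell (-0.95 ± 0.11, adjusted p = 0.000442). Tagln lost its call without the CO hydrogel library (0.14) and against the depth-weighted comparator (0.215). Cnn1 lost it without the untreated (0.0702) or the CO hydrogel library (0.215) and with the fibroblast threshold at 1% (0.208). Myl9 lost it without the hydrogel (0.0911) or the CO hydrogel library (0.0843), at that threshold (0.0523) and against that comparator (0.0667). Actn1 lost it without cells rich in other markers (0.0501). Of the 7 higher genes 4, Acta2, Tagln, Cnn1 and Myl9, had a higher level outside the fibroblast gate than within it. Mural markers summed to 48.3, 88.4 and 131 CPM in cycling and 73.2, 111 and 149 CPM in non-cycling fibroblasts, and the part of other cells in these calls was not tested. Without the CO hydrogel library 4 rose and 1 fell.

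Genes of known fibroblast states were mostly lower in cycling cells. Of 19 genes of the Dpp4 and Pi16 progenitor state, which lies in fascia and around vessels, none rose and 15 fell, with a median of -1.19. Pi16 had 40.5, 1.26 and 30.3 CPM in cycling and 260, 79.1 and 249 CPM in non-cycling cells (-3.21 ± 0.24, adjusted p = 2.42e-05). Gfpt2, an enzyme that supplies hyaluronan precursors, had 417, 115 and 205 CPM against 1183, 649 and 559 (-1.98 ± 0.19, adjusted p = 0.000127), and Has1, a hyaluronan synthase, 394, 85.8 and 259 against 721, 762 and 684 (-1.89 ± 0.34, adjusted p = 0.00464). In both genes every cycling sum lay below every non-cycling one. Clec3b fell by 1.69 ± 0.21, Fndc1 by 1.51 ± 0.10 and Dpp4 by 1.67 ± 0.28, the last with an adjusted p of 0.00343 in edgeR and 0.0933 in DESeq2. With total UMIs 13 of the 19 were lower.

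The state named after Cxcl14, the chemokine in the study's title, was also lower. Cxcl14 had 31.2, 153 and 34.8 CPM in cycling and 291, 421 and 220 CPM in non-cycling fibroblasts (-2.67 ± 0.27, adjusted p = 0.000197), and 1 hydrogel cell held 81.0% of the cycling UMIs of its library. Of the 12 genes tested with it 11 fell, with a median of -2.75. Cilp, a cartilage and fascia protein, had 0, 2.52 and 11.1 CPM against 6.29, 79.5 and 107 (-3.88 ± 0.29, adjusted p = 2.46e-05), where the 0 stands below a floor of 0.828 CPM for 3 counts. Ccn5, a growth-restraining matricellular protein, had 6.90, 11.4 and 22.1 CPM against 79.0, 159 and 171 (-3.51 ± 0.17, adjusted p = 1.9e-06). Mgp, the inhibitor of calcification, had 860, 179 and 224 CPM against 3510, 2303 and 1545, and Gas6, named for its induction in growth-arrested fibroblasts, 12.4, 59.3 and 75.0 against 145, 338 and 342, with fold changes of -3.00 ± 0.26 and -2.90 ± 0.22. The state of Cxcl13 and Sfrp4 had 6 of 6 lower, with a median of -2.07. Sfrp4, a Wnt binder, had 236, 66.9 and 381 CPM against 1549, 1086 and 1042, and the complement genes C3 and Cfb fell by 2.86 and 2.43.

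The lists of Tnn and Prss35 fibroblasts and of the dermal papilla did not lean downward. Of 11 genes of the Tnn and Prss35 state 3 rose and 1 fell. Nt5dc2 rose from 21.1, 31.1 and 30.3 CPM to 37.5, 58.1 and 60.2 (0.70 ± 0.11, adjusted p = 0.00243), Prdm1, a repressor found in dermal fibroblast lineages, by 0.54, and Mmp11, a stromal metalloproteinase, fell (-1.29 ± 0.19). Mmp13, a collagenase, was called higher (1.78 ± 0.22, adjusted p = 0.000621), yet 1 cell held 96.2% of its untreated and another 65.0% of its hydrogel UMIs, and the call was lost with at least 4 cycle genes (0.713), without the highest Scrublet scores (0.069) and without cells rich in other markers (0.0825). Prss35 and Tnn themselves were not called (0.26 and 0.21). At 3000 UMIs per cell both were found in a larger share of cycling than of non-cycling cells in each library. Prss35 was in 14.4%, 47.4% and 31.1% of cycling and 9.48%, 20.9% and 18.4% of non-cycling cells. Tnn was in 37.1%, 50% and 56.5% against 29.1%, 36.8% and 24.9%. The exact intervals were apart for Prss35 in both gel libraries and for Tnn with the CO hydrogel. They overlapped in the other cases. Of 14 genes of the dermal papilla and of Wnt signalling 2 rose and 3 fell. Wnt5a, a ligand of the non-canonical pathway, rose from 60.0, 67.8 and 73.7 CPM to 142, 178 and 230 (1.21 ± 0.11, adjusted p = 0.000111), and Crabp1, a retinoic acid carrier of papillary and wound-neogenic fibroblasts, from 38.9, 50.5 and 27.5 to 125, 273 and 94.6 (1.74 ± 0.15, adjusted p = 6.2e-05). Sfrp1, a secreted Wnt binder, fell from 989, 592 and 360 CPM to 423, 309 and 225 (-1.16 ± 0.12, adjusted p = 0.000181). Dkk3 and Rspo3 were also called lower, but Dkk3 lost its call without the untreated library (0.0631), and Rspo3, seen in 2, 0 and 2 cycling cells, lost it with DESeq2 (0.193) and without the untreated (0.148), the hydrogel (0.0728) or the CO hydrogel library (0.152).

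Receptors for growth factors were lower where they were called. Of 18 tested none rose and 8 fell, with a median of -0.44. Tgfbr3, betaglycan, had 122, 78.3 and 138 CPM in cycling and 294, 236 and 369 CPM in non-cycling cells (-1.62 ± 0.11, adjusted p = 1.52e-05), and Tgfbr2, the signalling TGF-beta receptor, 53.5, 40.4 and 54.9 against 93.9, 116 and 112 (-1.27 ± 0.15, adjusted p = 0.000362). Pdgfra, the receptor that defines many fibroblasts, was not called (-0.23, adjusted p = 0.417). The other 6 calls (Egfr, Insr, Met, Bmpr2, Il6st, Osmr) were lost with DESeq2, and 3 genes were called lower without the CO hydrogel library or against a comparator weighted to the same depth.

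Among 22 ligands 3 rose and 7 fell. Igf1, the insulin-like growth factor, had 13.8, 84.6 and 159 CPM against 226, 423 and 477 (-2.73 ± 0.36, adjusted p = 0.000883). The epithelial growth factors Fgf7 and Fgf10, which fibroblasts send to keratinocytes, fell by 1.26 ± 0.14 and 2.28 ± 0.47, and Fgf18 by 2.58 ± 0.34. Inhba, the activin A chain, rose from 222, 285 and 111 CPM to 966, 547 and 231 (1.17 ± 0.21, adjusted p = 0.0051), a call lost against the depth-weighted comparator (0.169). Areg, amphiregulin, rose by 0.89 ± 0.12 and Tgfb2 by 0.95 ± 0.15.

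Signals to the immune system were mostly lower. Of 20 complement genes, chemokines and cytokines 14 fell and 1 rose, with a median of -1.21. Il6 had 396, 167 and 151 CPM in cycling and 1289, 664 and 601 CPM in non-cycling fibroblasts (-2.10 ± 0.11, adjusted p = 2.7e-06). Cxcl12, which holds leukocytes in tissue, had 44.4, 121 and 108 against 188, 399 and 486 (-2.22 ± 0.12, adjusted p = 3.56e-06). C4b, a complement component, had 11.0, 3.79 and 15.2 CPM against 84.6, 99.4 and 98.2 (-3.23 ± 0.22, adjusted p = 1.37e-05), and Ccl11, eotaxin, 0.276, 0 and 1.23 against 14.4, 12.3 and 13.7. In each of these genes all cycling sums lay below all non-cycling ones. The neutrophil chemokine Cxcl6 was the one that rose, from 63.1, 285 and 72.6 CPM to 225, 1038 and 169 (1.43 ± 0.14, adjusted p = 0.000142), while Cxcl1 and Cxcl3 fell by 0.81 and 1.21. For 3 of the 14 lower genes the level outside the gate was above that within it.

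The interferon list had 14 of 19 lower and none higher, with a median of -0.85, and the immediate early list 16 of 19 lower and none higher, with a median of -0.66. Ifit2 had 6.34, 6.31 and 15.2 CPM against 16.1, 31.6 and 36.5 (-1.65 ± 0.19, adjusted p = 0.000378), and Isg15, the interferon-induced ubiquitin-like protein, 16.8, 30.3 and 94.6 against 42.4, 161 and 146 (-1.48 ± 0.26, adjusted p = 0.0039). All 14 lower interferon genes had a higher level outside the gate than within it, and 6 were called with total UMIs, 6 with DESeq2, 7 without the CO hydrogel library and 6 against the depth-weighted comparator. Atf3, a stress-induced factor, had 221, 440 and 372 CPM against 434, 876 and 752 (-1.21 ± 0.09, adjusted p = 2.78e-05) and Junb 1017, 1210 and 1154 against 1599, 1818 and 1739 (-0.83 ± 0.08, adjusted p = 0.000175). These are also genes that tissue dissociation raises. With total UMIs 12 immediate early genes were lower and 1 was higher.

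Of the 10 genes with the lowest fold changes by the naming rule, Eln, Ccn5, C4b, Pi16, Mgp, Gas6 and C3 are given above. Pla2g2a, a secreted phospholipase, had 29.0, 1.26 and 2.05 CPM against 227, 32.5 and 21.5 (-3.31 ± 0.19, adjusted p = 5.39e-06), Sned1, a matrix protein, fell by 3.15 ± 0.29 and C6, a late complement component, by 2.96 ± 0.32. All 3 were lower in the cycling sum of each library.

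The last question was how cycling fibroblasts differed between the wounds. Among genes with at least 100 UMIs over the pair, 119 of 4045 (2.94%) were at least 2-fold higher and 42 (1.04%) at least 2-fold lower in the CO hydrogel than in the hydrogel library. The counts were 212 (3.79%) and 137 (2.45%) of 5599 for CO hydrogel over untreated, and 199 (4.28%) and 254 (5.47%) of 4646 for hydrogel over untreated. Each library enters a pair of these ratios, so a level that is odd in one library moves both. For lists, genes with at least 20 UMIs were used, of which 7.01% were at least 2-fold higher and 2.64% lower for CO hydrogel over hydrogel, 7.92% and 3.21% for CO hydrogel over untreated, and 8.5% and 7.45% for hydrogel over untreated. TMM factors in place of total UMIs lower all log2 ratios to the untreated library by 0.17 (CO hydrogel) and 0.19 (hydrogel) and raise those of CO hydrogel over hydrogel by 0.02. With them 135 genes were at least 2-fold higher and 177 lower for CO hydrogel over untreated, and 114 higher and 351 lower for hydrogel over untreated, so more genes were lower than higher in both.

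The progenitor genes separated the hydrogel library from both others. Dpp4, the surface peptidase of that state, stood at 103, 0 and 21.3 CPM, and Cd34, a sialomucin of stromal progenitors, at 24.8, 0 and 13.5 CPM, where the floor of 3 counts is 3.79 CPM in the hydrogel library. Pi16 stood at 40.5, 1.26 and 30.3 CPM, Mfap5, a microfibril protein of fascia, at 2260, 453 and 1214 CPM, Ackr3, a scavenger of CXCL12, at 240, 39.1 and 114 CPM, and Anxa3 at 118, 8.84 and 52.0 CPM. Cd55, which shields cells from complement, stood at 205, 12.6 and 93.0 CPM. The hydrogel level was the lowest in each of these. Of 18 progenitor genes 15 were at least 2-fold higher and none 2-fold lower in the CO hydrogel than in the hydrogel library, with a median log2 ratio of 1.75 (genes at 0 set to the floor), against 0.56 in non-cycling fibroblasts. Of 19, 17 were at least 2-fold lower and none higher in the hydrogel than in the untreated library (median -2.20, non-cycling -0.96). Between the CO hydrogel and untreated libraries 1 was at least 2-fold higher and 6 lower (median -0.61, non-cycling -0.36). Fndc1, a fibronectin-domain protein, did not follow and stood at 196, 244 and 397 CPM.

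**Figure D5:**
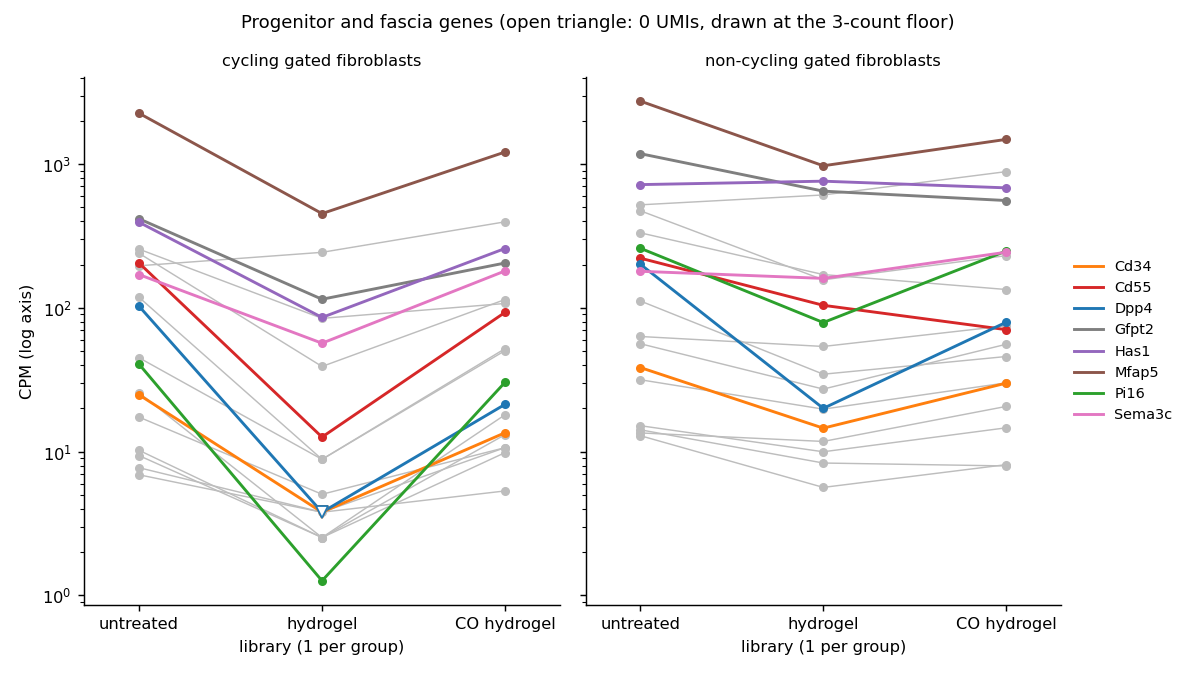
Levels in CPM (vertical log axes) of 19 progenitor and fascia genes in cycling (left) and non-cycling (right) fibroblasts of the untreated, hydrogel and CO hydrogel libraries, 1 line per gene and 8 of them in colour; an open triangle marks a gene with 0 UMIs, drawn at the floor of 3 counts. In cycling cells most lines dip at the hydrogel library, where Dpp4 and Cd34 had 0 UMIs.

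Per cell at equal depth the hydrogel library had no UMI of either gene examined here. Of cycling fibroblasts thinned to 3000 UMIs the untreated library had a Dpp4 UMI in 22.7% of 132, the hydrogel library in 0 of 38 and the CO hydrogel library in 8.07% of 161, against 33.8%, 4.68% and 16.2% of non-cycling ones. Pi16 was found in 5.30%, 0 and 8.07%, and in 23.3%, 10.3% and 21.04% of non-cycling cells. A count of 0 in 38 cells allows a share of 7.89% (3 counts) or 9.25% (exact interval). The exact limit lies above 8.07%, so a lower share than with the CO hydrogel was not detectable at this depth for either gene, nor for Pi16 a lower share than untreated. Without shared barcodes the list's medians were 1.75, -2.20 and -0.63 for the 3 pairs in the order above, without the highest Scrublet scores 1.81, -2.36 and -0.88, and with the fibroblast threshold at 1% they were 1.53, -2.03 and -0.78. The hydrogel values rest on 42 cells.

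Other genes showed larger single differences between the 2 gels. Efemp1, a fibulin of fascia, and Gap43, a growth-associated membrane protein, had 1 UMI each in the hydrogel library and 201, 1.26 and 166 CPM and 209, 1.26 and 152 CPM in the 3 libraries. Their log2 ratios of CO hydrogel over hydrogel were 7.04 (interval 4.56 to 12.35) and 6.92 (4.43 to 12.22), against 1.86 and 0.62 in non-cycling fibroblasts. Aoc3, an amine oxidase, was at 11.0, 11.4 and 95.9 CPM and so was highest with the CO hydrogel (3.08, 2.13 to 4.22; non-cycling 0.36). Igfbp3, which binds insulin-like growth factors, was at 116, 15.1 and 90.5 CPM (2.58, 1.75 to 3.55; non-cycling -0.05). Nppb, Islr, Aqp1, Plac9 and RT1-T24-3 completed the 10 highest, with ratios from 2.57 to 4.85. In the hydrogel library 2 cells held all UMIs of Aqp1 and 4 those of Cd55.

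Among the 10 lowest ratios of CO hydrogel over hydrogel were those of chemokines and secreted proteins. Cxcl6 was at 225, 1038 and 169 CPM (-2.62, -2.79 to -2.45; non-cycling -1.97) and Lbp, the lipopolysaccharide-binding protein, at 467, 1325 and 401 CPM (-1.73, -1.85 to -1.60; non-cycling -0.50). Ccn2, the connective tissue growth factor, was at 47.7, 179 and 48.7 CPM (-1.88, -2.24 to -1.52) and was not lower among non-cycling cells (0.04). Crabp1 was at 125, 273 and 94.6 CPM and Gzmbl2 at 7.17, 198 and 48.3 CPM. Cxcl14 was at 31.2, 153 and 34.8 CPM (-2.13, -2.55 to -1.72; non-cycling -0.93), and the difference in cycling cells rests on the 1 hydrogel cell named above. Gstk1, Nsg1, Cfi and the glycolytic gene Pkm completed the 10, with ratios from -2.13 to -1.41.

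Some genes of cycling fibroblasts stood higher in both gel libraries than untreated. Ptn, pleiotrophin, was at 20.7, 396 and 675 CPM, a log2 ratio of 5.03 (4.70 to 5.38) for the CO hydrogel and 4.26 (3.89 to 4.64) for the hydrogel. Igf1 was at 13.8, 84.6 and 159 CPM (3.53, 3.10 to 3.98, and 2.62, 2.07 to 3.17), against 1.08 and 0.91 in non-cycling cells. Mmp3, stromelysin, was at 34.2, 208 and 397 CPM, with 1 untreated cell holding 50.8% of its UMIs there, and Runx1t1, a corepressor, at 18.2, 143 and 164 CPM. Non-cycling fibroblasts shared these rises, with log2 ratios (CO hydrogel, hydrogel) of 3.31 and 2.67 for Ptn and 1.93 and 1.44 for Runx1t1. For Mmp3 the non-cycling ratios, 3.63 and 2.80, were above the cycling ones, 3.54 and 2.61. Apoe was at 358, 2776 and 2425 CPM, with 40.7% of the hydrogel UMIs in 1 cell, and at 1807, 4835 and 4960 CPM in non-cycling cells. Gzmb had 71.4% of its hydrogel UMIs in 1 cell. Sparcl1, Egfl6, Ntrk2, Aoc3, Itm2a and Col11a1 were among the 10 highest for the CO hydrogel, and Gzmbl2, Nsg1, C1qtnf3 and Gstk1 for the hydrogel.

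Lower in both gels than in the untreated library was a group of genes with high untreated levels. Serpinb2, the plasminogen activator inhibitor of stressed cells, was at 253, 0 and 9.42 CPM, at least 66.8-fold lower in the hydrogel library (3 counts in place of 0) and 4.75 lower on the log2 scale with the CO hydrogel (interval of the ratio -5.41 to -4.15). Nppb, the natriuretic peptide BNP, was at 360, 5.05 and 56.1 CPM and Lmo1 at 58.5, 1.26 and 5.73 CPM. Msln, mesothelin, was at 217, 39.1 and 31.1 CPM and Ca4, a carbonic anhydrase, at 444, 141 and 66.8 CPM. Non-cycling fibroblasts were lower too. Their CO hydrogel over untreated log2 ratios were -3.81 for Serpinb2, -2.25 for Nppb, -2.38 for Lmo1, -2.95 for Msln and -4.33 for Ca4. The cycling ratios in that order were -4.75, -2.68, -3.35, -2.80 and -2.73. Dpp4, Sema3d, Tnfsf18, Akr1c3 and Cdhr5 had 0 UMIs in the hydrogel library, at least 27.1-, 13.2-, 10.8-, 8.67- and 8.45-fold lower than untreated. Their non-cycling log2 ratios of hydrogel over untreated were -3.33, -1.59, -2.69, -4.62 and -3.75.

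By list, 9 of 17 collagens were at least 2-fold higher in the CO hydrogel than in the untreated library (median log2 ratio 1.01, non-cycling 0.44) and 8 of 17 in the hydrogel library (0.96, non-cycling 0.48). With TMM factors the counts were 5 and 6, and without shared barcodes 5 and 8. Col15a1, a vascular basement membrane collagen, stood at 150, 803 and 546 CPM and Col11a1 at 5.52, 37.9 and 43.4 CPM. Contractile genes were at least 2-fold higher in 8 of 15 for the hydrogel (1.06, non-cycling 1.05) and 7 of 17 for the CO hydrogel (0.71, non-cycling 0.46), or 4 and 3 with TMM factors. Interferon genes were at least 2-fold higher in 6 of 14, with 1 lower (0.91, non-cycling 1.13), and 9 of 16 (1.09, non-cycling 1.25). Immediate early genes, which tissue dissociation also raises, were at least 2-fold higher in 9 of 19 and lower in 1 for the hydrogel (1.00, non-cycling 0.72) and in none for the CO hydrogel (0.42, non-cycling 0.43), and their part in the other differences was not tested. Growth factor ligands (medians 0.01 and 0.14) and wound matrix genes (0.05 and 0.01) stood near the medians of all genes, 0.08 and 0.13, for hydrogel and CO hydrogel over untreated. Glycolysis and hypoxia genes were at least 2-fold lower in 9 of 19 for the CO hydrogel (-0.94, non-cycling -0.73). For the hydrogel 3 of 19 were lower and 1 higher (-0.53, non-cycling -0.57). Genes of the Cilp and Cxcl14 state were at least 2-fold higher in 8 of 12 and lower in 1 for the CO hydrogel over untreated (1.57, non-cycling 0.71, or 1.45 without the gene at 0). For the hydrogel over untreated 4 of 9 were higher and 1 lower (0.80, non-cycling 0.49). Mgp of that list, at 860, 179 and 224 CPM, was highest in the untreated library. In the division programme the 8 cycle genes of the rule had medians of -0.36, 0.21 and 0.55 for CO hydrogel over hydrogel, CO hydrogel over untreated and hydrogel over untreated. Their non-cycling medians were 0.35, 0.39 and -0.17. For 37 spindle genes the medians were -0.23, 0.28 and 0.58, and 0.13, -0.03 and -0.10 in non-cycling cells. By the cycling medians the hydrogel library was the highest. The 8 genes sorted the cells into the 2 states and the spindle genes vary with them, so this order is a description only. TMM factors lowered the cycling spindle median of hydrogel over untreated to 0.39.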

How the data were processed

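Single-cell RNA libraries (10x 3' V3.1) of 3 groups of wounds gave 1 filtered matrix each. The deposited values are whole-number UMI counts without normalization. The authors obtained them from Cell Ranger, version 6.0.1 per the file headers and 7.0.0 per the submitters' processing notes, which also name rn6, Seurat 4.2.0 and DESeq 1.38.0. The matrices held 43701 barcodes and 32883 features. Cells were chosen by the rule in the text, and the members and gene lists were chosen with earlier results of these data known. Counts were summed per library and state and given as CPM. The states were compared with edgeR 4.0.16 (R 4.3.3; TMM factors, quasi-likelihood, Benjamini-Hochberg), with the library as a block because both sums of a pair come from the same library, which leaves 2 residual degrees of freedom; the p-values measure the spread between these 3 libraries, which may be technical. The 13 genes of the rule stayed in the library sizes and were not tested. On simulated counts for this comparison (11339 genes tested, 100 changed per fold size) 89% of 2-fold and 100% of 4-fold genes were recovered, and 5.5% of calls were false. DESeq2 1.42.0 was an alternative. Between libraries CPM ratios carry 95% intervals of counting error only. Doublets were scored with Scrublet in scanpy 1.11.5, whose own threshold called 0, 541 and 555 barcodes; in its place the highest 1328, 1908 and 1891 scores (10.3%, 12.4% and 12.3%) were marked and left out only in an alternative. Genes named are those of the rule, up to 4 per list by largest fold change with at least 100 UMIs, Cxcl14, and the 10 highest and 10 lowest fold changes or ratios with the filters on level and on signal outside the gate; further list members were named after their values were seen. One of the gene lists is not reported here.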

Additional observations from a re-analysis of the deposited data

Results flagged for a closer look

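In 8 of the listed or named genes the cycling cells stood above the non-cycling ones in one library and below them in another, past a fixed minimum log2 ratio each way and with counting intervals that leave out 0 in both; genes that changed sign by less are not listed. The share of all genes that meets this is not given, so the 8 have no background to be read against. These differences between the libraries were not tested, since each group was 1 library. Ccn2, the connective tissue growth factor, had log2 ratios of cycling over non-cycling fibroblasts of -0.527 (untreated), 1.115 (hydrogel) and -0.799 (CO hydrogel). Adm, the vasodilator adrenomedullin, had -1.163, 0.613 and -0.224 in that order, and the neutrophil chemokine Cxcl2 -0.639, 0.461 and 0.614. Thbs4, a thrombospondin, had -0.065, 1.719 and -1.049, with all 16 hydrogel UMIs in 1 cell. Cfd, the protease adipsin, had -1.607, -0.511 and 1.446, with 70.3% of the CO hydrogel UMIs in 1 cell. Mx1, an interferon-induced GTPase, had 0.888, -2.399 and -1.256 on 34, 2 and 14 UMIs. Cxcl9, an interferon-gamma chemokine, had -1.951, 0.649 and -1.422 on 17, 36 and 19 UMIs. Bmp4 had 1.057 in the untreated and -2.866 in the CO hydrogel library, on 35 and 5 UMIs, and 0 UMIs in the hydrogel library.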

How the results depend on the processing

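The untreated share of cycling fibroblasts was the highest under every alternative of filter, threshold and thinning below, though among cells of at least 20000 UMIs it was 19.0% against 20.8% with the CO hydrogel. With at least 2 cycle genes the shares were 12.5%, 3.57% and 4.21% (untreated, hydrogel, CO hydrogel), thinned to 2000 UMIs 5.17%, 1.47% and 1.82%, and thinned to 3000 UMIs 6.44% untreated and 2.11% CO hydrogel. With the threshold at 1% they were 6.15% untreated and 2.23% CO hydrogel, and with at least 4 cycle genes 2.34% CO hydrogel. Of genes called between the states, leaving out 1 library gave 697 to 1014 higher and 862 to 1256 lower, total UMIs 1993 and 756, and DESeq2 788 lower. Without the replicate block that pairs the states of a library 497 were higher and 284 lower, and 135 of 192 calls among the genes of the lists were lost, among them Ccnd1 and Myc. None of those genes called in the first place reversed its direction under the alternatives run. Counts at least 2-fold apart moved by mean per-cell CPM to 198 higher and 79 lower for CO hydrogel over hydrogel, and to 135 higher for CO hydrogel over untreated and 114 for hydrogel over untreated with TMM factors, or 123 for the latter at the 1% threshold. The cause of these moves was not tested. Depth limits the hydrogel library most, where 42 cells give a floor of 3.79 CPM.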
